A study of Mus musculus with 27 samples.

Results

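The genes described here are 10 genes of steroid hormone synthesis, *Star*, *Cyp11a1*, *Hsd3b1*, *Cyp17a1*, *Cyp19a1*, *Hsd17b1*, *Hsd17b3*, *Scarb1*, *Fdx1* and *Fdxr*, out of 48795 Ensembl genes in the files. They were chosen by name and matched by symbol, each to a single gene identifier, and all 10 passed the low-count filter and were tested. The bulk RNA-seq libraries fall into 9 groups of 3. All of them came from XY embryonic stem cells (ESC) of an F1 C57BL/6 x CBA background that carry Tesco-CFP, a reporter driven by the Sertoli cell enhancer of *Sox9*, and R26-rtTA, the activator needed for doxycycline-inducible genes. All libraries are labelled as clone 7, so 1 clone stands for this genotype. EpiSC, the epiblast-like stage, had been kept in Activin A (20 ng/ml) and bFGF (12 ng/ml), and M, the early mesoderm stage, in bFGF (20 ng/ml), BMP4 (10 ng/ml) and the inhibitor LY294002. The 5 intermediate mesoderm media IM1 to IM5 all held bFGF (5 ng/ml) and BMP (20 ng/ml). Media IM2 to IM5 also held retinoic acid (100 nM). IM2 and IM5 had Activin A (10 ng/ml) added, while IM4 and IM5 had CHIR99021 (0.3 µM), which inhibits GSK3. The iSLC group, labelled as induced embryonic Sertoli-like cells, was made from IM3 cells that were replated and given doxycycline-inducible lentiviruses for *Nr5a1* and *Dmrt1*. It was then kept in doxycycline and a medium with EGF, FSH, FGF9, prostaglandin D2, testosterone and Activin A, and sorted for CFP.

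NR5A1, also called SF1, is a nuclear receptor of the gonads and the adrenal gland and the best known activator of steroidogenic genes. Steroid synthesis starts when cholesterol, taken up by receptors such as SCARB1, is moved by STAR to the inner mitochondrial membrane, where CYP11A1 cuts its side chain to give pregnenolone. CYP11A1 receives its electrons from the flavoprotein FDXR through the iron-sulfur protein FDX1, and later enzymes turn pregnenolone into progesterone, androgens, estrogens or adrenal steroids. In the testis this pathway is known mainly from Leydig cells, while Sertoli cells are known as supporting cells. The question put to the data here was how these genes stood in the cells given *Nr5a1* and *Dmrt1* against the cells they came from and against the other stages.

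NR5A1 is known to bind a nuclear receptor half-site preceded by a short extension. RefSeq promoter windows of 300 bases, 250 before and 50 after a start, were at hand for 6 of the 10 genes (9 windows on GRCm38.p6). None was at hand for *Star*, *Cyp17a1*, *Hsd17b1* and *Scarb1*. The full sites TCAAGGTCA, CCAAGGTCA, TCAAGGCCA and CCAAGGCCA were searched on both strands, as were their leading letters, TCAAGG (in 14.4% of all 32851 windows) or CCAAGG (in 21.4%), so each full site also counts as a short match. The 6-letter forms were chosen after the windows had been read, so a match is a description of the letters. A full site stood in 1 of the 9 windows, a window of *Cyp19a1*, against 2.22% of all windows. Its 6-letter match lay at bases 22 to 27, behind the start, and *Cyp19a1* had 0 counts in every iSLC library. A 6-letter form stood in 5 of the 9 windows, each of a different gene, against 32.6% of all windows. The stretches below show the start regions of the genes that stood higher in iSLC than in IM3 and had a window. The windows of *Cyp19a1* are not printed. Each has 150 bases, reads in the direction of transcription and ends just before the annotated start or with a match just behind it, and capitals mark the 6-letter forms or their reverse complements.

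Cyp11a1, chr9:58014810-58014959, plus strand: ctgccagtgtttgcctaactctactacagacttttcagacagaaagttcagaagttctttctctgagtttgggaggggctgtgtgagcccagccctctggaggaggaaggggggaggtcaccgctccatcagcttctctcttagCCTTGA
Fdx1, chr9:51963603-51963752, minus strand: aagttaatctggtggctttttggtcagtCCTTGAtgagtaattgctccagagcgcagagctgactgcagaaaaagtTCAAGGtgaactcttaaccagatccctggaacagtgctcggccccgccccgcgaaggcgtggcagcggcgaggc
Fdxr, chr11:115276970-115277119, minus strand: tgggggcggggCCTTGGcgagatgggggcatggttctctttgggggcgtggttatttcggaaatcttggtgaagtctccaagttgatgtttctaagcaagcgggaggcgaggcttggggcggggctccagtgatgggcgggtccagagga
Hsd3b1, chr3:98859779-98859928, minus strand: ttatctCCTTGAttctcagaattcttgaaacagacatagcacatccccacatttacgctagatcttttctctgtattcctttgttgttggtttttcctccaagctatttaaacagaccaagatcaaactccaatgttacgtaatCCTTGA
Hsd17b3, chr13:64089202-64089351, minus strand: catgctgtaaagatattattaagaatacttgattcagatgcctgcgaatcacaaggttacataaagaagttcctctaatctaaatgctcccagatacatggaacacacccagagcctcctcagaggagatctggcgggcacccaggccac

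In *Fdx1* the matches lay 74 and 122 bases before the start, in *Fdxr* the match lay 139 bases before it, and in *Hsd3b1* a match lay 128 bases before it and another began at base 11. In *Cyp11a1* the match began at base 3 of this window, and a further window of the gene, chr9:57997774-57998073, held none. The window of *Hsd17b3* held no match.

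The targeted genes were checked in every library before the members. *Nr5a1* stood at 100.27, 93.96 and 87.17 TPM in the iSLC libraries (TPM is the deposited level per transcript length) and at 0 to 0.15 TPM in the other 24. *Dmrt1* stood at 219, 228 and 192 TPM in iSLC, at 19.8 to 23.2 in ESC, at 8.69 to 9.06 in EpiSC and at no more than 1.19 in M and the IM groups. Both levels go with the labels. Gene totals do not separate the viral from the endogenous transcripts, and iSLC differed from IM3 in both factors, the medium, the time, the replating and the sort together, so these cannot be told apart. Libraries held 35923040 to 84876603 expected counts, with 62749412 to 74311935 in iSLC and 39365494 to 55640100 in IM3. A sum of 6 red blood cell genes came to 21.3 to 74.4 TPM in IM3 and 1.65 to 2.18 TPM in iSLC. The same sum came to 11.7 to 91.0 TPM in ESC, 42.4 to 80.0 in M and 30.8 to 72.1 in IM4. It was at most 4.54 TPM in EpiSC, IM1, IM2 and IM5, so it did not follow the stage of the cells. The GC trend, the median log2 deviation of the 25% of genes with the highest GC content minus that of the 25% with the lowest, was -0.379 to -0.058 in IM3 and 0.386 to 0.459 in iSLC. Their part in the results was not tested beyond the fit with a GC offset given beside them.

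**Figure D1:**
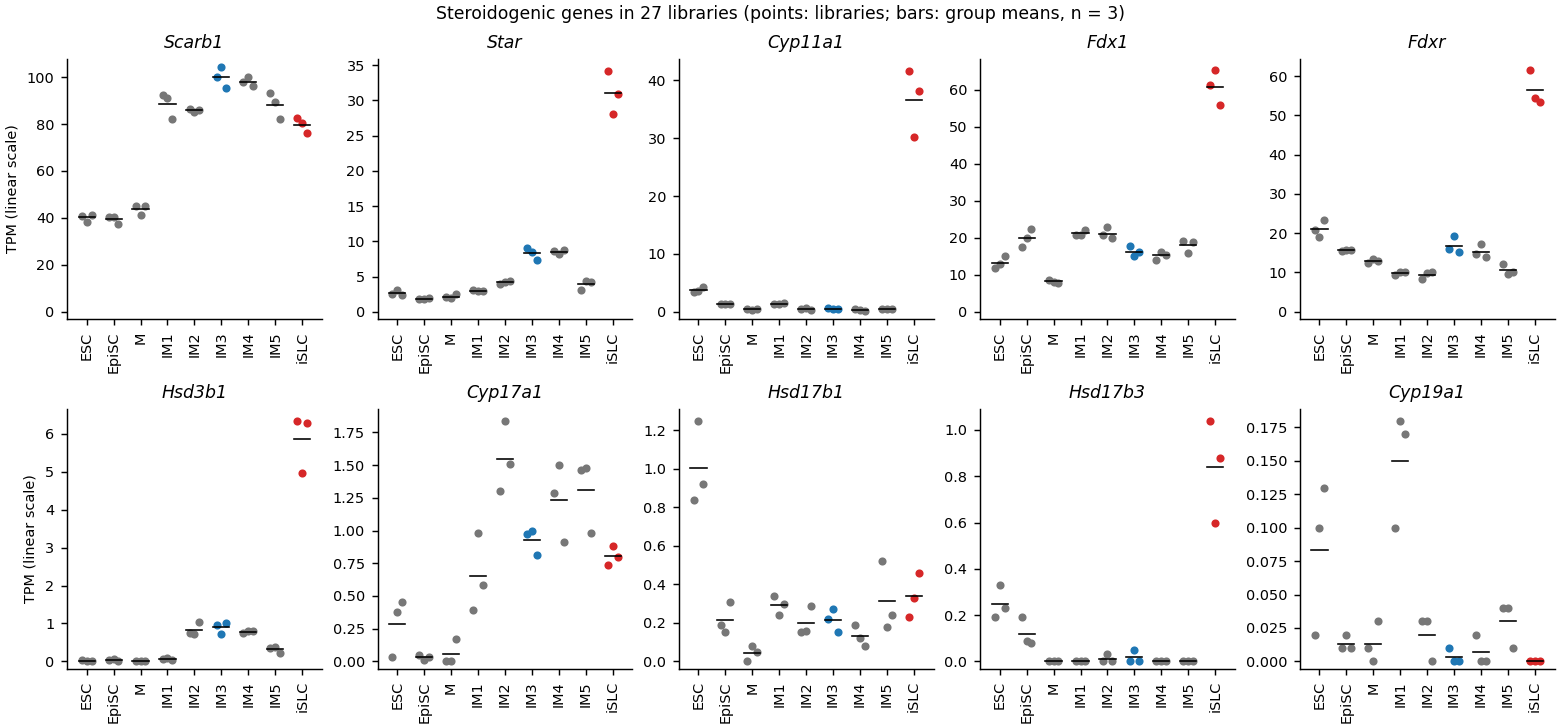
TPM (linear axes, a scale for each gene) of the 10 genes in each library of the 9 groups; points are libraries, bars are group means (n = 3), IM3 is blue and iSLC red. The iSLC libraries lie above all others for Star, Cyp11a1, Fdx1, Fdxr, Hsd3b1 and Hsd17b3, within the range of the others for Scarb1, Cyp17a1 and Hsd17b1, and at 0 for Cyp19a1.

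The receptor for cholesterol uptake had its highest mean level in IM3, before *Nr5a1* was given, with overlap between IM3 and IM4. *Scarb1*, the receptor for high-density lipoprotein (ENSMUSG00000037936, chr5:125277087-125341094, minus strand), stood at 40.92, 38.40 and 41.24 TPM in ESC, at 40.41, 40.42 and 37.59 in EpiSC and at 45.24, 41.35 and 44.93 in M. It stood at 82.11 to 104.4 TPM in the 15 IM libraries, and at 82.75, 80.34 and 76.19 in iSLC. The IM and iSLC libraries did not overlap with the earlier stages, and the iSLC libraries lay below all 3 IM3 libraries (100.27, 104.4 and 95.37 TPM), which held for 36.5% of all genes tested and for 1 of the 10 genes here. The count of *Scarb1* in iSLC was 1.22-fold below IM3 (log2 fold change -0.29 ± 0.05 SE, edgeR quasi-likelihood test, adjusted p = 3.18e-05), which is under the fold of 2 set for a call. Against the mean of all 8 other groups its log2 fold change was 0.15 ± 0.04, and against the mean of the 5 IM groups -0.22, so its direction depends on the groups it is set against. In bulk samples, fewer cells with a transcript and less of it per cell cannot be told apart, here and in all results that follow.

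*Star*, the carrier of cholesterol into the mitochondrion (ENSMUSG00000031574, chr8:25806555-25815982, plus strand), rose in iSLC. It stood at 34.23, 28.13 and 30.92 TPM in iSLC and at 9.08, 8.48 and 7.40 TPM in IM3. The other groups stood lower than iSLC as well, with 8.57, 8.21 and 8.71 TPM in IM4, 3.93, 4.16 and 4.37 in IM2, 3.07, 4.34 and 4.26 in IM5 and 3.13, 2.98 and 2.88 in IM1. *Star* was lowest before the IM stage, at 2.09, 1.92 and 2.47 TPM in M, 1.83, 1.74 and 1.95 in EpiSC and 2.48, 3.02 and 2.34 in ESC. No library outside iSLC passed 9.08 TPM. The count in iSLC was 3.14-fold that of IM3 (log2 fold change 1.65 ± 0.08, adjusted p = 1.06e-16), and against the mean of the other 8 groups the log2 fold change was 2.40 ± 0.05 (adjusted p = 1.89e-25). The difference from IM3 was 1.73 on the log2 scale with the GC offset and 1.60 to 1.92 over all alternatives.

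*Cyp11a1*, the side-chain cleavage enzyme that makes pregnenolone (ENSMUSG00000032323, chr9:58006411-58027023, plus strand), had the largest rise of the 4 called genes. It stood at 41.62, 30.22 and 38.22 TPM in iSLC and at 0.57, 0.40 and 0.45 TPM in IM3. ESC held 3.42, 3.65 and 4.31 TPM, EpiSC 1.40, 1.36 and 1.41 and IM1 1.36, 1.38 and 1.5. The remaining groups stayed under 1 TPM, with 0.30 to 0.49 in M, 0.38 to 0.61 in IM2, 0.15 to 0.41 in IM4 and 0.46 to 0.56 in IM5. iSLC therefore stood above all other libraries, with ESC as the next group. The count in iSLC was 88.0-fold that of IM3 (log2 fold change 6.46 ± 0.20, adjusted p = 4.02e-20), and against the mean of the other 8 groups the log2 fold change was 5.63 ± 0.09 (adjusted p = 2.12e-27). The log2 difference from IM3 was 6.26 to 6.59 over all alternatives. In the annotation its exons share bases with the noncoding gene *Gm17322* on the same strand, and 1.48% of its stretches of 75 bases, the read length, also stand in that gene.

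The electron transfer chain of CYP11A1 rose with it. *Fdx1*, the iron-sulfur protein that carries the electrons (ENSMUSG00000032051, chr9:51943306-51963556, minus strand), stood at 61.28, 65.37 and 55.79 TPM in iSLC and at 17.62, 15.14 and 16.04 TPM in IM3. Its other groups ran from 7.85 to 8.66 TPM in M to 20.78 to 22.19 in IM1, with 11.91 to 15.01 in ESC, 17.48 to 22.24 in EpiSC, 19.90 to 22.84 in IM2, 14.07 to 16.19 in IM4 and 15.93 to 19.20 in IM5. No library outside iSLC passed 22.84 TPM. The count in iSLC was 3.87-fold that of IM3 (log2 fold change 1.95 ± 0.11, adjusted p = 1.14e-14), and the log2 difference was 1.86 to 2.21 over all alternatives.

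*Fdxr*, the reductase that feeds FDX1 (ENSMUSG00000018861, chr11:115268024-115277050, minus strand), stood at 61.66, 54.32 and 53.33 TPM in iSLC and at 15.97, 19.34 and 15.26 TPM in IM3. ESC came next with 20.88, 19.02 and 23.39 TPM, and EpiSC held 15.46, 15.82 and 15.78. M held 12.44 to 13.46 TPM, IM1 9.41 to 10.12, IM2 8.30 to 10.12, IM4 13.97 to 17.18 and IM5 9.56 to 12.24. The iSLC libraries again lay above all others. The count in iSLC was 3.43-fold that of IM3 (log2 fold change 1.78 ± 0.12, adjusted p = 2.41e-13), and the log2 difference was 1.56 with the GC offset, its lowest value, and at most 1.94. On the TPM scale the levels of *Fdx1* and *Fdxr* in iSLC overlapped, and both exceeded those of *Cyp11a1* and *Star* in every iSLC library.

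Of the 10 genes, 4 were therefore called higher in iSLC than in IM3 and 0 lower, against 10.3% of all 20839 genes tested called higher and 8.92% called lower. Called genes were those at or under an adjusted p of 0.01 whose fold was 2 or more and whose mean normalized count reached 100, both over the whole set and in a compared group. The median log2 fold change of all 10 genes was 1.71, against 0 over all genes tested. Against the mean of the other 8 groups the same 4 genes were called higher, where 12.1% of all genes were, and 7 of the 10 passed without the count minimum, against 22.1% of all genes. With the mean of EpiSC, IM1, IM2 and IM5 alone in that place, groups whose red blood cell genes summed to 1.57 to 4.54 TPM, 4 were called higher too, against 11.5% of all genes. That set of groups was picked with the values known. The comparison with IM3 and that with all 8 groups share the iSLC and IM3 libraries. In TPM, every iSLC library lay above the other 24 libraries for 6 of the 10 genes, which held for 22.2% of all genes tested. *Hsd17b3* counts among the 7, among these 6 and in the median of 1.71. It passed the low-count filter only through iSLC and could only come out higher there, so no conclusion is drawn from these values.

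**Figure D2:**
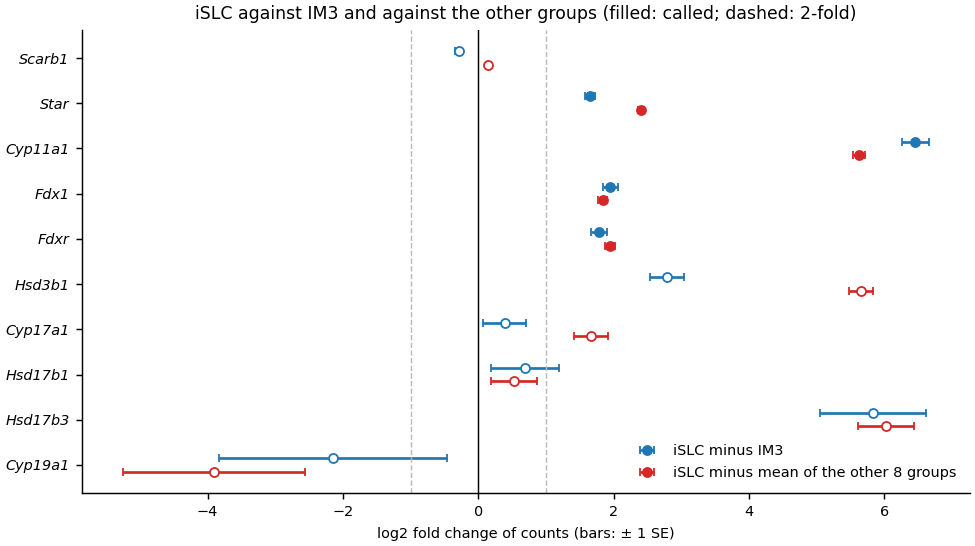
Fitted log2 fold changes of counts (x axis) with bars of ± 1 SE for the 10 genes, iSLC minus IM3 in blue and iSLC minus the mean of the other 8 groups in red; filled points were called, and dashed lines mark a 2-fold change. The filled points are Star, Cyp11a1, Fdx1 and Fdxr in both comparisons, between 1.65 and 6.46, while open points of Hsd3b1 and Hsd17b3 lie as far to the right but under the count minimum.

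A further 2 genes passed the adjusted p and the fold against IM3 but not the count minimum, since they were low in most groups. *Hsd3b1*, the dehydrogenase that turns pregnenolone into progesterone (ENSMUSG00000027871, chr3:98852194-98859794, minus strand), stood at 6.35, 4.98 and 6.30 TPM in iSLC and at 0.96, 0.72 and 1.02 TPM in IM3. It stood at 0.71 to 1.04 TPM in IM2, 0.74 to 0.80 in IM4 and 0.23 to 0.37 in IM5, and at 0.08 TPM or less in ESC, EpiSC, M and IM1. The counts behind these levels were 406, 280 and 368 in iSLC, 46, 27 and 35 in IM3 and no more than 6 in ESC, EpiSC, M and IM1. The iSLC count was 6.90-fold that of IM3 (log2 fold change 2.79 ± 0.26, adjusted p = 1.94e-10). With only iSLC and IM3 in the fit the count minimum was met and the gene was called, with a log2 fold change of 2.76. Its stretches of 75 bases were not shared with another *Hsd3b* gene, and 1.35% of them also stand in *Gm12431*.

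*Hsd17b3*, the enzyme that makes testosterone from androstenedione (ENSMUSG00000033122, chr13:64058266-64089230, minus strand), was low everywhere. It had 47, 23 and 35 counts in iSLC (1.04, 0.60 and 0.88 TPM), 4, 15 and 9 in ESC and 8, 4 and 4 in EpiSC. In M and the 5 IM groups a single count stood in 1 library of IM2 and in 1 of IM3, and the other 16 libraries were at 0. The summed counts of 105 in iSLC and 1 in IM3 gave a ratio of 74.5 per effective library size, with an exact 95% interval of 13.1 to 2970 that covers counting error only. The fitted log2 fold change against IM3 was 5.83 ± 0.79 (adjusted p = 2.27e-06), and its size depends on that single count. Without the count minimum, 6 of the 10 genes passed in the higher direction against IM3, against 18.6% of all genes. *Hsd17b3* is among the 6 but passed the low-count filter only through iSLC. Such a gene can only come out higher, so no conclusion is drawn from this count.

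Further enzymes of androgen and estrogen synthesis, *Cyp17a1*, *Hsd17b1* and *Cyp19a1*, all lay under the count minimum in iSLC against IM3. None of them could be called there, whatever its fold. *Cyp17a1*, the hydroxylase and lyase that leads to androgens (ENSMUSG00000003555, chr19:46667165-46673172, minus strand), stood at 0.74, 0.88 and 0.80 TPM in iSLC and at 0.97, 1.00 and 0.81 TPM in IM3, with overlap. It was highest in IM2 at 1.3, 1.84 and 1.51 TPM and lowest in EpiSC at 0.05, 0.01 and 0.03. The counts were 43, 50 and 47 in iSLC and 41, 20 and 17 in IM3, and the log2 fold change was 0.39 ± 0.32 (adjusted p = 0.285). It was -0.18 with an offset for effective length, so its direction differed between the fits.

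*Hsd17b1*, which converts estrone to estradiol (ENSMUSG00000019301, chr11:101078411-101080527, plus strand), had 11, 13 and 19 counts in iSLC and 8, 7 and 4 in IM3. On the TPM scale iSLC held 0.23, 0.33 and 0.46 and ESC 0.84, 1.25 and 0.92, which made ESC the highest group. The log2 fold change of iSLC against IM3 was 0.69 ± 0.50 (adjusted p = 0.222). *Cyp19a1*, the aromatase that makes estrogens (ENSMUSG00000032274, chr9:54165937-54268110, minus strand), had 0 counts in all 3 iSLC libraries. A count of 0 allows up to 0.0153 CPM (counts scaled to library size) over the group (3 counts), for counting error only. IM1 held 9, 20 and 16 counts (0.10, 0.18 and 0.17 TPM) and ESC 1, 9 and 10, and the level per effective library size was at least 13-fold lower in iSLC than in IM1. IM3 held 1, 0 and 0 counts, so no fold is given against it.

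RSEM divides counts by an effective length that depends on the transcripts it assigns, so folds on counts and on TPM can differ. The effective length of *Star* was 3668 ± 299 bases in ESC, 2566 ± 164 in IM3 and 2145 ± 71 in iSLC (SD, n = 3). It was also low in IM4, at 2505 ± 240 bases, and 3298 to 3554 bases in the means of EpiSC, M, IM1, IM2 and IM5. The iSLC to IM3 ratio of mean TPM was 3.74 for *Star*, against 3.14 on counts, while for *Fdx1* it was 3.74 against 3.87 and for *Fdxr* 3.35 against 3.43. Which transcripts of *Star* account for the shorter length was not analysed here.

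**Figure D3:**
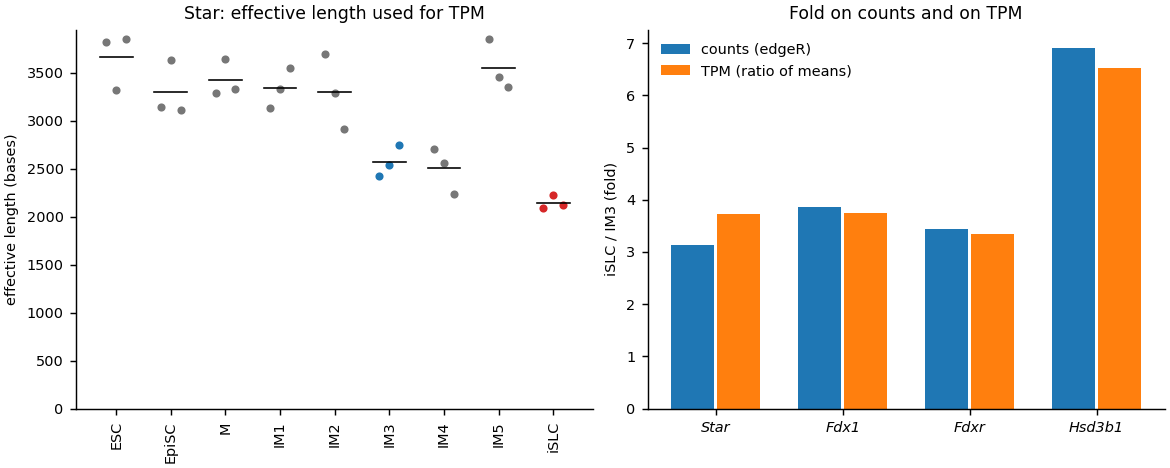
Left, effective length of Star in bases in each library (points) with group means (bars, n = 3); right, the iSLC to IM3 fold of 4 genes on edgeR counts (blue) and as the ratio of mean TPM (orange), both axes from 0. Star is the gene whose fold is larger on TPM (3.74) than on counts (3.14), and its effective length is lowest in iSLC at 2145 bases.

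The same genes were followed through the earlier stages. All 10 differed among the 8 groups without iSLC by the F test at an adjusted p under 0.05, as did 93.5% of all genes. From ESC to EpiSC, 1 of the 10 genes was called lower: *Cyp11a1* fell by 1.31 on the log2 scale (± 0.17 SE, adjusted p = 2.28e-07), where 4.32% of all genes were called lower. From EpiSC to M, *Cyp11a1* fell by a further 1.93 ± 0.23 (adjusted p = 3.17e-08) and *Fdx1* by 1.38 ± 0.12 (adjusted p = 6.61e-11), where 7.72% of all genes were called lower. Of the 10 genes, 2 were thus called in this step and both were lower.

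From M to IM3, *Star* rose by 1.34 ± 0.08 on the log2 scale (adjusted p = 8.76e-14) and *Scarb1* by 1.02 ± 0.06 (adjusted p = 5.45e-15), where 9.26% of all genes were called higher. The fold of *Scarb1* lies at the threshold, and its log2 value was 0.98 with the GC offset, 0.99 with the length offset and 0.99 without replicate 2. *Hsd3b1* went from 0, 0 and 1 counts in M to 46, 27 and 35 in IM3, and *Cyp17a1* from 0, 0 and 1 to 41, 20 and 17, both under the count minimum. *Fdx1* was 1.74-fold higher in IM3, under the fold set for a call, and the log2 fold changes of *Cyp11a1* and *Fdxr* were -0.04 ± 0.31 and 0.21 ± 0.12.

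Within the IM media, retinoic acid was the addition with a called gene. Between IM1 and IM3, which differ in retinoic acid, *Star* was 2.01-fold higher in IM3 (log2 fold change 1.01 ± 0.08, adjusted p = 4.26e-11), where 2.62% of all genes were called higher. The call was lost with the GC offset, without the low-count filter and without replicate 1 or 2, with log2 values of 0.98 to 0.99. *Cyp11a1* went the other way, from 105, 106 and 126 counts in IM1 to 24, 18 and 23 in IM3 (log2 fold change -1.67 ± 0.24, adjusted p = 2.17e-06), under the count minimum. *Fdxr* was 1.59-fold higher and *Fdx1* 1.42-fold lower in IM3, both under the fold set for a call.

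Activin A gave no call among the 10 genes, by edgeR or by DESeq2, either without CHIR99021 (IM2 against IM3, where 3.8% of all genes were called) or with it (IM5 against IM4, 4.09%). At an unadjusted p under 0.05 there were 5 genes in the former and 6 in the latter. *Star* was lower with Activin A in both, with log2 fold changes of -0.62 ± 0.08 and -0.60 ± 0.08 (adjusted p = 4.07e-07 and 5.07e-07). *Fdxr* was lower as well, by -0.76 ± 0.12 and -0.46 ± 0.12 (adjusted p = 1.75e-05 and 0.00271). With the length offset the log2 value of *Star* in IM5 against IM4 was -1.08 and the gene was called.

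CHIR99021 gave no call either, in IM4 against IM3 (0.101% of all genes) or in IM5 against IM2 (0.235%), by edgeR or DESeq2, and 1 gene of the 10 had an unadjusted p under 0.05 in each. *Star* differed by 0.04 ± 0.08 and 0.06 ± 0.08 on the log2 scale and *Scarb1* by 0.01 ± 0.05 and 0.09 ± 0.05. The interaction of Activin A and CHIR99021 gave 0 genes of the 10 at an adjusted p under 0.05 by edgeR and by DESeq2, with 2 at an unadjusted p under 0.05, while 0.624% of all genes passed.

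**Figure D4:**
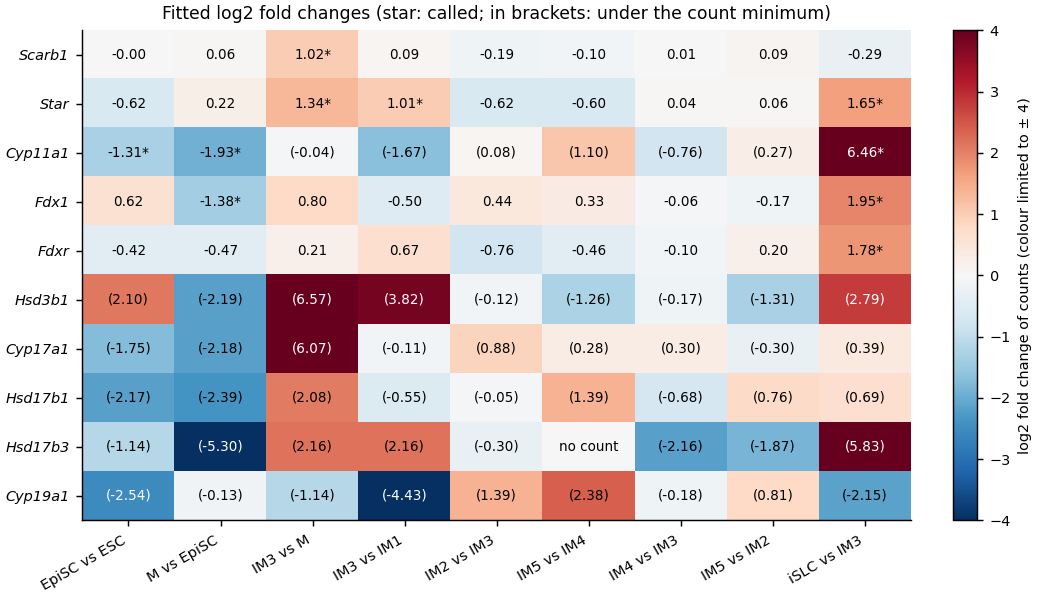
Fitted log2 fold changes of counts of the 10 genes (rows) in 9 comparisons (columns), the group named before "vs" minus the other; stars mark calls, brackets mark values under the count minimum, and colour is limited to ± 4. Calls before iSLC are Cyp11a1 in EpiSC and M, Fdx1 in M, and Star and Scarb1 in IM3, and the last column holds the 4 rises of iSLC.

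The order of the groups differed between the genes. *Star* fell in the order iSLC, IM4, IM3, IM2, IM5, IM1, ESC, M and EpiSC in mean TPM, with gaps between the libraries of iSLC and IM4 and between those of IM3 and IM2 and overlap at every other neighbour. *Cyp11a1* had gaps below iSLC, below ESC and below EpiSC, and the libraries of M and the IM groups other than IM1 overlapped with their neighbours. *Fdx1* had gaps only below iSLC and above M, and *Fdxr* below iSLC, below IM4 and below M. *Hsd3b1* had gaps below iSLC, below IM4 and below IM5. For *Cyp17a1* and *Cyp19a1* every neighbour in the order overlapped.

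Over the 27 libraries the genes did not form a single pattern. Pearson correlations of log2 CPM are given here as a description, since the libraries share groups and the iSLC group weighs on all of them. *Cyp11a1* correlated with *Hsd17b3* by 0.926 and with *Fdxr* by 0.835, *Hsd17b3* with *Fdxr* by 0.921, and *Star* with *Hsd3b1* by 0.902. *Cyp17a1* correlated with *Scarb1* by 0.897 and with *Cyp11a1* by 0.001, and *Fdx1* with *Fdxr* by 0.589. The 3 genes of the whole table most like *Star* were *Entpd4*, *Inpp5a* and *Mgll* (r = 0.979, 0.974 and 0.970), and those most like *Cyp11a1* were *Tmtc1*, *Islr2* and *Vsig10* (0.976, 0.959 and 0.958). For *Fdx1* they were *Evc2*, *Adam15* and *Sfrp2* (0.948, 0.945 and 0.945), and for *Fdxr* *Tmem219*, *Arnt* and *Agap2* (0.957, 0.957 and 0.954). *Hsd3b1* was most like *Col14a1*, *Traf5* and *Dpep1* (0.966, 0.964 and 0.963), *Hsd17b3* most like *Rph3a*, *Gm14569* and *C1s1* (0.984, 0.978 and 0.972) and *Scarb1* most like *Nt5c3b*, *Tgfbrap1* and *Zfp324* (0.984, 0.980 and 0.977). *Cyp17a1* was most like *Hsbp1*, *Tgfbi* and *Slc41a2* (0.967, 0.966 and 0.965). The lowest likeness was found for *Hsd17b1*, with *Rgcc*, *Nupr1* and *Tada3* (0.891, 0.884 and 0.872), and *Cyp19a1*, with *Slc22a18*, *Myo1e* and *Coro2a* (0.830, 0.826 and 0.817).

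Among the remaining enzymes of steroid metabolism, genes were called in both directions between iSLC and IM3, each near the share over all genes. Of 25 further enzyme genes matched, 18 were tested, and 2 were called higher and 2 lower. Over all genes tested 10.3% were called higher and 8.92% lower. The median log2 fold change of the 18 was 0.81 against 0 over all genes. The list includes genes that passed the low-count filter only through iSLC, such as *Cyp11b1*, so no conclusion is drawn from this median. The higher ones were *H2-Ke6*, the symbol here for *Hsd17b8* (16.1 to 17.9 TPM in IM3 and 44.1 to 47.2 in iSLC, 2.95-fold on counts), and *Hsd17b11* (11.9 to 13.9 and 29.7 to 31.9 TPM, 2.45-fold). *Hsd11b2*, which inactivates glucocorticoids, was 27.6-fold lower on counts, at 41.5 to 43.4 TPM in IM3 and 1.42 to 1.60 in iSLC. *Hsd17b12* was 2.25-fold lower. Of the 5 other redox partners of cytochromes, 1 was called, *Cyb5b*, which was 2.75-fold lower on counts (115 ± 0.744 TPM in IM3 and 41.6 ± 0.182 in iSLC, SD, n = 3).

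Of 13 genes of cholesterol uptake, transport and storage, 3 were called higher and 2 lower, against 10.3% and 8.92% of all genes. Their median log2 fold change was 0.24. *Abca1*, the exporter of cholesterol to lipoproteins, was 9.91-fold higher on counts (2.73 to 3.27 TPM in IM3 and 26.5 to 28.9 in iSLC). *Stard5*, a lipid carrier of the STAR family, was 2.40-fold higher, and *Lipe*, the hormone-sensitive lipase, 2.11-fold higher. *Stard4*, a sterol carrier of the same family, was 2.23-fold lower, at 83.4 to 86.5 TPM in IM3 and 38.8 to 40.4 in iSLC.

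Of 14 tested genes of hormone receptors and cyclic AMP signaling, 2 were called higher and 1 lower, against 10.3% and 8.92% of all genes. The higher ones were *Agtr1a*, an angiotensin receptor (88.4-fold on counts, 0.15 to 0.34 TPM in IM3 and 15.7 to 19.2 in iSLC), and *Prkar2b* (2.28-fold). The lower one was *Prlr* (2.63-fold). The gonadotropin receptors stood at or near 0: *Lhcgr* had 0 counts in every iSLC library and *Fshr* at most 1. *Mc2r*, the receptor for the pituitary hormone ACTH, stood at 9.06 to 11.2 TPM in iSLC (432 to 630 counts) and at 0.19 to 0.21 TPM in IM3 (6 to 9 counts), and was under the count minimum over all libraries. It is named after its values were seen, as are *Cyp11b1*, *Akr1b7*, *Cyp21a1*, *Mrap* and *Insl3*.

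Genes known as direct or likely targets of NR5A1, the members left out, were 16 in number, and 11 were tested. The gene lists overlap, so their results are not separate. *Mc2r*, *Mrap*, *Akr1b7* and *Cyp11b1* also stand in the adrenal list below, *Prlr* and *Insl3* in the Leydig list and *Sox9* and *Amh* in the Sertoli list. *Nr0b1*, a repressor of NR5A1 activity, was called higher (28.0-fold on counts, 2.06 to 3.13 TPM in iSLC), but its highest group was ESC at 42.4 to 48.5 TPM. *Inha*, the inhibin subunit, was called higher as well (4.50-fold, 2.78 to 3.87 TPM in IM3 and 13.5 to 15.5 in iSLC), and *Prlr* lower. Over all genes 10.3% were called higher and 8.92% lower. The median log2 fold change of the 11 was 2.17, against 0 over all genes. *Cyp11b1*, with 229 to 311 counts in the iSLC libraries and at most 10 in any other library, passed the low-count filter only through iSLC. Such genes can only come out higher, so no conclusion is drawn from this median. *Sox9* and *Amh*, the targets known from Sertoli cells, had log2 fold changes of -0.68 ± 0.11 and 0.40 ± 0.29 and were not called.

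Markers of steroidogenic and neighbouring cell types were counted in the same comparison, where 10.3% of all genes were called higher and 8.92% lower. Of the adrenal list (*Mc2r*, *Mrap*, *Cyp21a1*, *Cyp11b1*, *Cyp11b2* and *Akr1b7*), 5 of 6 were tested and 0 called by edgeR and by DESeq2. All 5 lay under the count minimum of the edgeR fit, so none could be called there whatever its fold. An unadjusted p under 0.05 was reached by all 5 tested. Without the count minimum 4 passed in the higher direction, against 18.6% of all genes. *Cyp11b1* and *Mc2r*, among these 4, passed the low-count filter only through iSLC and could only come out higher. No conclusion is therefore drawn from this count. *Mc2r*, at 9.06 to 11.2 TPM in iSLC, was also the largest part of the iSLC sum given next. The summed level of the list was 4.08 to 4.85 TPM in IM3, 17.9 to 20.7 in iSLC, 3.32 to 4.24 in IM4 and at most 2.07 in ESC, EpiSC, M, IM1, IM2 and IM5. *Cyp11b1*, the last enzyme of corticosterone synthesis, stood at 2.21 to 2.82 TPM in iSLC and at 0.01 to 0.10 in IM3, *Akr1b7* at 3.70 to 3.95 and 0.24 to 0.64, and *Cyp21a1* at 0.91 to 1.31 and 0.08 to 0.19. *Mrap*, the accessory protein of the ACTH receptor, stood at 1.91 to 2.94 TPM in iSLC and 2.99 to 4.13 in IM3 (log2 fold change -0.61 ± 0.25, under the count minimum), and *Cyp11b2* had 0 counts in every library. Of the Leydig list, 4 of 5 were tested, 0 were called higher and 1, *Prlr*, lower, while the others tested lay under the count minimum. The list summed to 3.83 to 3.88 TPM in IM3 and 8.28 to 9.69 in iSLC. Its hormone gene *Insl3* stood at 6.33 to 8.19 TPM in iSLC and at 0.64 to 1.37 in IM3, while *Lhcgr*, its defining receptor, was at 0.

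The labelled cell type was checked with 12 Sertoli genes. Of 10 tested, 0 were called in iSLC against IM3 by edgeR and by DESeq2. An unadjusted p under 0.05 was reached by 7, and 3 of them were higher in iSLC. *Amh*, *Dhh*, *Ptgds*, *Cst9*, *Fgf9* and *Cldn11* lay under the count minimum in the edgeR fit, so they could not be called there. Against the mean of the other 8 groups 4 were called higher (*Wt1*, *Sox8*, *Gata4* and *Sox9*), where 12.1% of all genes were. The list summed to 521 to 564 TPM in IM3 and 311 to 329 in iSLC. Most of that sum was *Gata4* (336 to 342 TPM in IM3 and 153 to 167 in iSLC) and *Wt1* (138 to 165 and 115 to 118). *Sox8* and *Dhh*, named after their values were seen, had log2 fold changes of 0.79 ± 0.10 and 1.43 ± 0.24. *Amh*, a defining product of Sertoli cells, stood at 0.47 to 0.61 TPM in iSLC. *Cldn11*, a tight junction gene of Sertoli cells, had a log2 fold change of 3.88 ± 0.20 but lay under the count minimum, and is named after its value was seen. Of 7 granulosa genes, 2 were called higher (*Fst* and *Wnt4*) and 1 lower (*Irx3*), and *Foxl2* stayed under the count minimum. For this and the following lists, the shares over all genes were 10.3% called higher and 8.92% called lower. Endoderm genes, 5 of 5 tested, and endothelial genes, 5 of 5, were all called lower in iSLC, from sums of 423 to 495 and 70.0 to 81.0 TPM in IM3 to 9.19 to 15.2 and 3.10 to 4.18 TPM. Of the trophoblast genes 2 of 6 tested, of the cardiac genes 3 of 5 and of the red blood cell genes 2 of 6 were called lower, and none of these was called higher. The red blood cell genes were also high in ESC and M, so what they stand for in IM3 is not known. The part of these genes and cell types in the values of the 10 genes was not tested.

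Regulators of the pathway other than *Nr5a1* and *Dmrt1* gave 5 higher and 2 lower calls among 19 tested, against 10.3% and 8.92% of all genes. The higher ones were *Nr0b1*, *Cebpb* (4.17-fold on counts), *Nr2f1* (3.52-fold), *Nr4a1* (2.56-fold) and *Zfpm2* (2.00-fold). *Nr2f1* and *Zfpm2* were highest in iSLC. *Cebpb* stood at 29.0 to 49.0 TPM in iSLC and 21.5 to 68.1 in IM1, and *Nr4a1* at 15.1 to 17.1 in iSLC and 15.2 to 17.9 in ESC. *Zfpm1* was 4.26-fold lower and *Nr5a2*, the close relative of *Nr5a1*, 2.16-fold lower. *Gata4* and *Wt1*, both known for their part in gonad formation, had log2 fold changes of -0.64 ± 0.07 and -0.26 ± 0.09 and were not called.

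**Figure D5:**
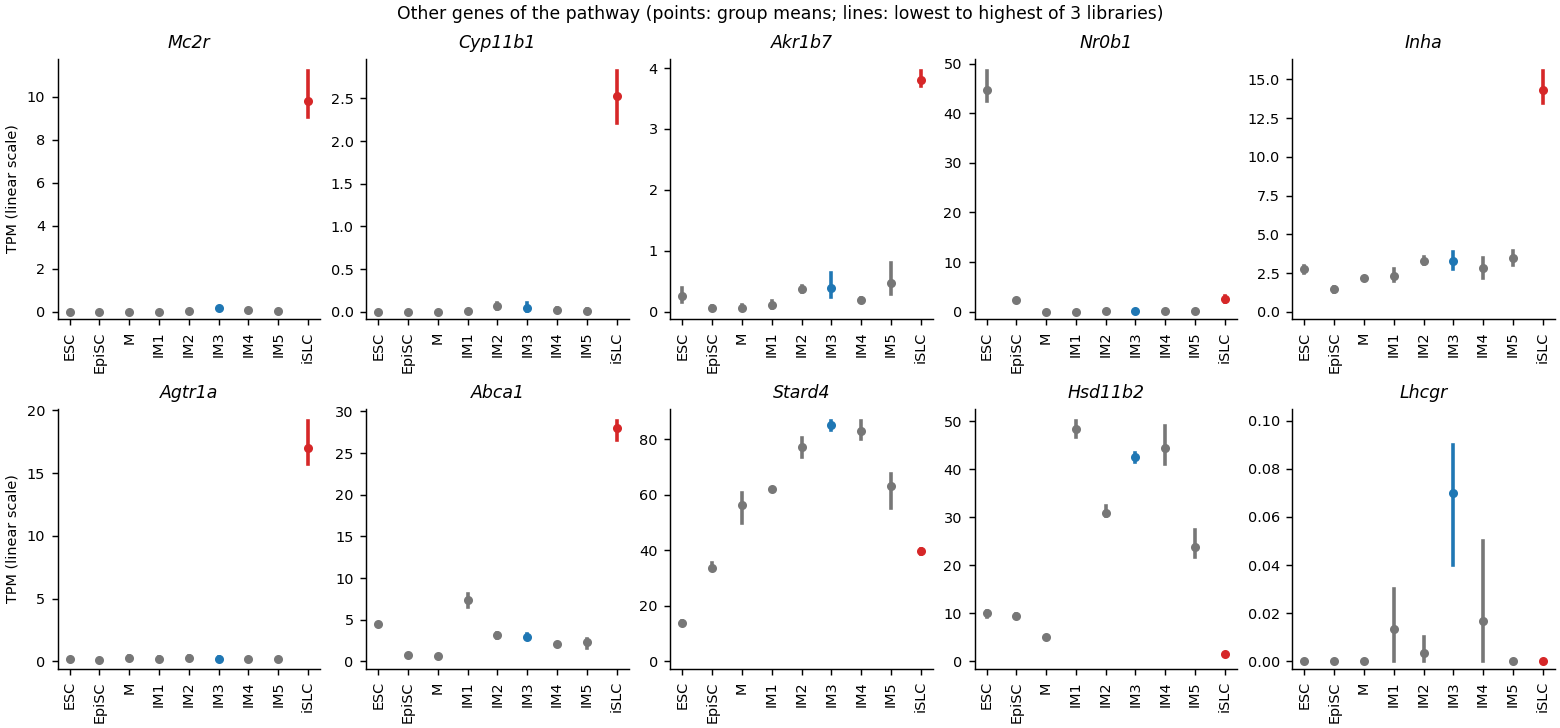
TPM (linear axes, a scale for each gene) of 10 other genes by group; points are means and lines run from the lowest to the highest of 3 libraries. Mc2r, Cyp11b1, Akr1b7, Inha, Agtr1a and Abca1 are highest in iSLC, Nr0b1 is highest in ESC at 42.4 to 48.5 TPM, and Stard4 and Hsd11b2 are lower in iSLC than in IM3. Lhcgr, at 2 to 6 counts in the IM3 libraries and 0 in iSLC, is near the floor and was not tested.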

How the data were processed

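RNA-seq of 27 mouse libraries was used. According to the methods and the submitters' processing notes, the authors trimmed paired reads with cutadapt 1.9.1, aligned them to GRCm38 with STAR 2.5.2a and estimated gene abundance with RSEM 1.3.0, whose expected counts were deposited without normalization between libraries. The TPM values deposited by the authors are those counts per effective length, scaled to a fixed sum. Effective length is the deposited mean length open to a fragment. FPKM was not used. Whether counting used strand is not given in the sources used here.

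The members and gene lists were chosen with earlier results of these data known. Groups and replicate numbers came from the labels. Names and coordinates came from GENCODE M21 (GRCm38), which matched 48349 of 48795 genes. Promoters came from RefSeq on GRCm38.p6 and were at hand for 6 members. Expected counts were rounded. Low genes were removed with filterByExpr (edgeR 4.0.16 under R 4.3.3), which left 20839. Libraries were scaled by TMM, and glmQLFit and glmQLFTest were run over all libraries with a coefficient per group. Benjamini-Hochberg adjustment ran over all genes tested. The thresholds for a call were those of the study (adjusted p 0.01, fold 2, mean normalized count 100). The F test over 8 groups and the interaction used an adjusted p under 0.05. Alternatives were DESeq2 1.42.0, its size factors, offsets for length and GC content, no low-count filter, a fit of the groups compared, a replicate block, other thresholds and left-out libraries.

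The labels do not say whether replicates were separate cultures, so p-values measure the spread between these libraries. All replicate pairs differed by more than counting noise (chi-square per degree of freedom 3.63 to 53.8). Counting limits used 3 counts as the floor and cover counting error only. Named were all members, both factors, listed genes called in iSLC against IM3 (up to 5 per direction), listed genes needed to state absence, and the 3 genes most correlated with each member (log2 CPM with TMM, prior count 2). The steps were tested on simulated counts. A called gene of the cholesterol list is counted there and not reported here by name.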

Additional observations from a re-analysis of the deposited data

How the results depend on the processing

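Against IM3, 4 of the 10 genes were called, and the count was 6 without the count minimum, 5 without the fold minimum, 5 when only the groups compared were fitted and 4 under the other alternatives. Against the mean of the other groups it was 4, with 7 without the count minimum, 5 without the fold minimum and 4 under the other alternatives. *Hsd17b3*, which passed the low-count filter only through iSLC, is among the 6 and the 7 genes. Of 166 alternative values of single genes against IM3, 164 kept their direction and their side of the threshold. The exceptions were *Hsd3b1*, called with a log2 fold change of 2.76 when only the groups compared were fitted, and *Cyp17a1*, which reversed to -0.18 with the effective length offset (adjusted p = 0.725). Of 179 such values against the other groups, 178 did so, the exception being *Scarb1*, which reversed to -0.22 against the mean of the 5 IM groups. In IM3 against M, 2 genes were called and 1 with the effective length offset, the GC offset or without replicate 2 (1 to 2 over the left-out replicates). In IM3 against IM1, 1 was called and 0 without the low-count filter, with the GC offset or without replicate 1 or 2 (0 to 1). In IM5 against IM4, 0 were called and 1 with the effective length offset. The calls that changed in IM3 against M and in IM3 against IM1 lie at the 2-fold threshold. In IM5 against IM4 the gene was *Star*, with a log2 value of -0.60 in the main fit and -1.08 with the length offset. Its mean effective length was 2505 bases in IM4 and 3554 in IM5. The cause was not tested otherwise. Same-numbered libraries of different groups correlated by 0.00242 on average in their deviations from the group means and differently numbered ones by -0.00123. Single same-numbered pairs went down to -0.183. No common pairing by number was seen, but a mean near 0 cannot show that there is none. With the replicate block, 4 genes were called in iSLC against IM3 and 4 against the other groups, and no count of members called changed. Counts under the minimum limit *Hsd3b1*, *Hsd17b3*, *Hsd17b1*, *Cyp17a1* and *Cyp19a1*, and 3 libraries a group limit every comparison.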
